A study of Rattus norvegicus with 3 samples.

Results

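Nuclei of the injured rat spinal cord that carried neuron markers and no marker of inhibitory neurons are described here. A droplet barcode, taken as 1 nucleus, was a member when it held a unique molecular identifier (UMI, 1 counted RNA molecule) of at least 3 of the 6 neuron genes Snhg11, Syt1, Celf4, Snap25, Kcnip4 and Asic2. It also had to hold 0 UMIs of the 4 inhibitory genes Gad1, Gad2, Slc32a1 and Slc6a5, and a UMI of at most 1 of the 6 genes Itgam, Csf1r, Flt1, Mecom, Col1a1 and Col3a1, which mark myeloid cells, endothelium and fibroblasts. The members were thus selected on measured values of these genes, and no value of them is a finding. Of 5326 barcodes, 196 were members (3.68%). They were 84 of 2252 in the untreated library (3.73%, 95% interval 2.99 to 4.60), 89 of 2168 in the scaffold library (4.11%, 3.31 to 5.03) and 23 of 906 in the HGF scaffold library (2.54%, 1.62 to 3.78).

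The tissue was the lesion epicenter of wild-type Sprague Dawley rats (strain label SDrat) aged 17 weeks, collected 49 days after spinal cord injury, and all 3 groups were injured. The untreated group received no implant, the scaffold group had carried a scaffold for 7 days, and the HGF scaffold group had carried for as long one that releases hepatocyte growth factor (HGF). Each group was 1 library of nuclei, and the labels do not give the number of animals behind it. No difference between groups therefore has a replicate check or a test, a group cannot be told apart from its library, and every interval below covers counting error only.

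The dorsal horn and intermediate zone of the spinal cord hold excitatory and inhibitory interneurons side by side. Excitatory neurons load glutamate into vesicles, most of them in the cord through VGLUT2, the product of Slc17a6, and many dorsal horn excitatory neurons depend on the transcription factor Lmx1b. Inhibitory neurons make GABA with the enzymes encoded by Gad1 and Gad2, load GABA and glycine with the transporter encoded by Slc32a1, take up glycine with that encoded by Slc6a5, and many arise under Pax2 and Pax8. A nucleus holds little of the mature messenger RNA of a cell, so the absence of an inhibitory UMI is a weaker sign than its presence.

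Depth bears on every share below. The members' median depth was 2792.5 UMIs in the untreated, 1732 in the scaffold and 1517 in the HGF scaffold library, against 1407.5, 1639 and 1047 over all barcodes of each library. Before the limit on other-lineage genes, 501 barcodes met the neuron and inhibitory conditions, and that limit left out 305 of them. Those left out had median depths of 4852.5, 5168 and 3966 UMIs, so the rule kept the shallower barcodes. Of 116 barcodes with all 6 neuron genes and no inhibitory UMI, 48 were members. When every barcode was first thinned to 500 UMIs, the members' share was 4.40% (untreated), 4.66% (scaffold) and 2.65% (HGF scaffold), the same order as without thinning. Libraries shared few barcodes, 3 between untreated and scaffold and 1 between scaffold and HGF scaffold, and none of them was a member.

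The rule genes themselves, given as a description, were uneven. Asic2, a subunit of acid-sensing ion channels, had a UMI in 170 of 196 members and Kcnip4, a modulator of A-type potassium channels, in 145. Snhg11, a nuclear noncoding RNA, had a UMI in 153, Syt1, the calcium sensor of vesicle release, in 151, Snap25, a SNARE protein, in 116 and Celf4, an RNA-binding protein, in 112. Exactly 1 of the other-lineage genes was present in 120 members, most often Col3a1 (41 members) or Col1a1 (38).

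The name of the group was checked against 25 neuron markers that the rule did not use. Their summed level was 23200 counts scaled to 1e6 UMIs (CPM) in untreated, 20562 in scaffold and 33420 in HGF scaffold members, against 5355, 4118 and 1930 in all other barcodes of those libraries. Meg3, a long noncoding RNA of neurons, had a UMI in 175 members and the splicing factor gene Rbfox1 in 142, while Rbfox3, which encodes the NeuN antigen, was found in 7. The level depended on how many rule genes a member had. At the threshold, the 75 members with exactly 3 rule genes had 6946 CPM of these markers, and the 241 barcodes just outside with 2 rule genes had 3252 CPM. Members with 4, 5 and 6 rule genes had 21217, 25237 and 30362 CPM. Oligodendrocyte markers ran the other way, with 5502, 4389, 2482 and 2268 CPM in members with 3, 4, 5 and 6 rule genes, and median depth grew from 1256 through 1732 and 2719.5 to 4303 UMIs.

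**Figure D1:**
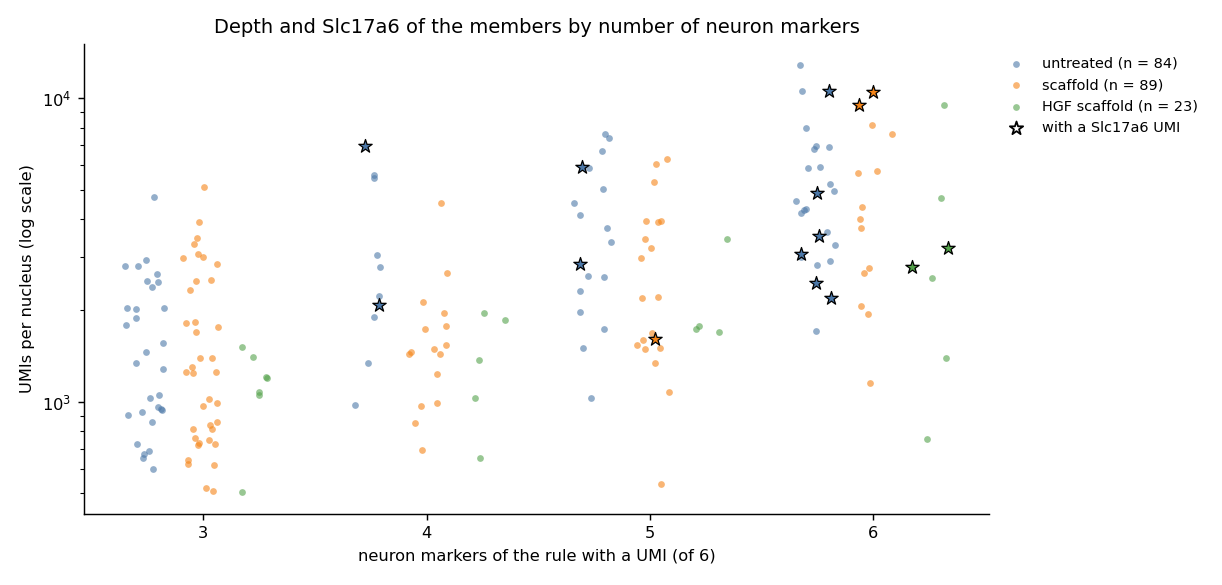
UMIs per nucleus (log axis) of each member against how many of the 6 rule neuron genes it held, by library, with a star for members with a Slc17a6 UMI. Depth grows with the number of genes, and no member with 3 genes carries a star.

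Clustering of the members gave 9 clusters, and these go in part against the name. In 5 clusters, called neuron-led below, the neuron markers outside the rule summed to more than 3 times the 4430 CPM of all other barcodes, a limit set after the values were seen. They held 120 members (61.2%), which were 53 of 84 untreated (63.1%), 47 of 89 scaffold (52.8%) and 20 of 23 HGF scaffold members (87.0%). Over all barcodes of each library these were 2.35%, 2.17% and 2.21%. The other 76 members lay in 4 clusters whose leading genes were not neuronal, so the members as a whole are a neuron-enriched set and not a pure class of neurons. Median depth was 2706.5 UMIs in neuron-led clusters and 1415 in the others.

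The neuron-led clusters are described by the genes that lead them, which were found on the same nuclei and are no test. The largest had 42 nuclei (7 untreated, 22 scaffold, 13 HGF scaffold) and was led by the RNA-binding protein gene Elavl2, Ndst4, an enzyme gene of heparan sulfate synthesis, and Cntn5, an axonal adhesion molecule with 1078 CPM there against a median of 18.7 CPM over the other clusters. The next, with 38 nuclei (21, 13 and 4), was led by Elavl2, Lmx1b, Cpne4 and Ebf2, and Ebf1 reached 9222 CPM in it. Leading genes name a cluster and need not be in most of its nuclei. Here Elavl2 had a UMI in 5 and Lmx1b in 15 of 38 nuclei. In the largest cluster Elavl2 was in 22 and Ndst4 in 6 of 42. A cluster of 16 nuclei (9, 5 and 2) was led by Galntl6 (7190.4 CPM), Sox5 (4018 CPM), the potassium channel gene Kcnd3 (3075 CPM) and the growth factor gene Nrg1. A cluster of 14 nuclei (11, 3 and 0) was led by Rasgrf2, Lmx1b, Hmga2, Pde11a and Ebf2, with Lmx1b and Pde11a UMIs in all 14 nuclei. The last, of 10 nuclei (5, 4 and 1), was led by Zmat4, Dscaml1, St18 and Nrxn3 and also held 7091 CPM of oligodendrocyte markers.

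The 4 remaining clusters carried other programmes. One of 39 nuclei (10 untreated, 27 scaffold, 2 HGF scaffold) had Cnksr3, Slfn3, Lyn and Enpp6 among its leading genes, with 8306 CPM of oligodendrocyte and 3063 CPM of microglia and macrophage markers. Lyn was found in 29 of its nuclei, Cnksr3 in 15, Slfn3 in 13 and Enpp6 in 10. Mecom, a gene of the selection, had 32 UMIs in 3 of the 39 nuclei. One of 17 nuclei (8, 9 and 0) was led by Gfap, Mt3 and Clu and held 9946 CPM of astrocyte markers. One of 14 nuclei (9, 4 and 1) was led by Col5a3, Ptprz1 and Vcan with 6683 CPM of oligodendrocyte precursor cell (OPC) markers, and one of 6 nuclei (4, 2 and 0) by Bnc2, Pde1c and Cdh11. The part of droplets with a pair of nuclei and of free RNA in these clusters was not tested. In all 196 members, at least 4 of 10 oligodendrocyte markers had a UMI in 62 (31.6%), and Mbp had one in 133.

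**Figure D2:**
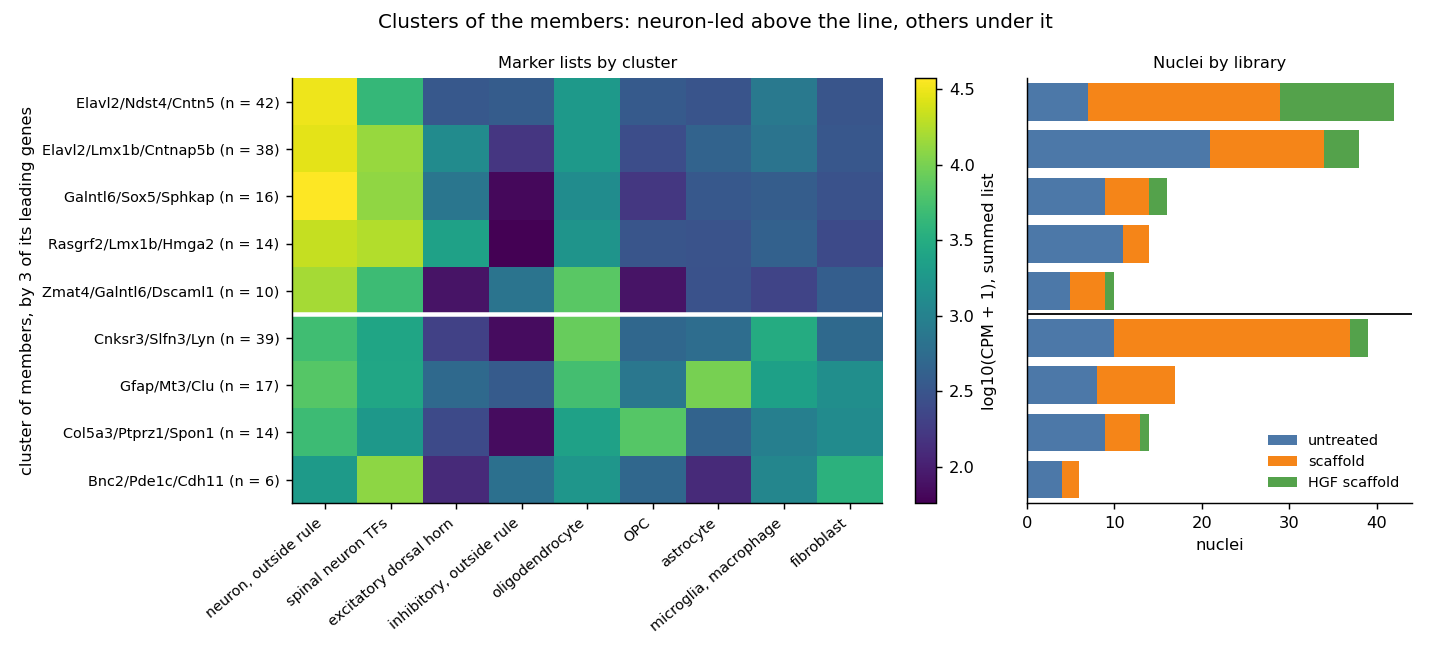
Left, summed CPM of marker lists (log10 of CPM plus 1) in the 9 clusters of members, each named by 3 of its leading genes; right, nuclei of each cluster by library. The 5 clusters above the line have the highest level of the neuron list outside the rule, which set the line. This does not hold for the spinal neuron transcription factors (TFs), at 12349 CPM in the cluster led by Bnc2 and 4281 CPM in the largest cluster. Of the 39 nuclei of the cluster led by Cnksr3, Slfn3 and Lyn, 27 are from the scaffold library.

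Slc17a6 was found in few members. A UMI was present in 10 of 84 untreated (11.9%, interval 5.86 to 20.8), 3 of 89 scaffold (3.37%, 0.701 to 9.54) and 2 of 23 HGF scaffold members (8.70%, 1.07 to 28.04), together 15 of 196 (7.65%, 4.35 to 12.3) with 17 UMIs. Levels were 38.2, 17.8 and 41.4 CPM. The intervals of the 3 libraries overlap, and the difference between them was not tested. Background was lower in other cell types, at 0 of 205 oligodendrocyte (median depth 2081 UMIs) and 2 of 454 myeloid barcodes (0.441%, 1236 UMIs). Both sets were chosen to hold a UMI of at most 1 of the 6 rule neuron genes. Barcodes with more neuron RNA were thus left out of this background beforehand. The members' median depth was 2052 UMIs. The share of 0 allows up to 1.46% (3 counts of 205, the limit used for every share of 0). Among barcodes that met the rule but held an inhibitory UMI, 2 of 40 had Slc17a6 (interval 0.611 to 16.9%, median depth 4416.5 UMIs). They were 2 of 13 such untreated barcodes (15.4%, 38.5 CPM). The interval for the 40 overlaps that of all members, so Slc17a6 was not shown to set the members apart from these barcodes. With each member thinned to 1000 UMIs, 4 of 72 untreated, 0 of 68 scaffold (allowing up to 4.41%) and 1 of 20 HGF scaffold members had a Slc17a6 UMI. At 2000 UMIs these were 5 of 57, 2 of 38 and 1 of 6.

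The share with Slc17a6 was higher in members with more rule genes. It was present in 0 of 75 members with 3 rule genes, 2 of 31 with 4, 3 of 42 with 5 and 10 of 48 with 6, while 3 of 241 barcodes just outside the rule had it. All 15 members with Slc17a6 lay in neuron-led clusters, 6 in the one led by Rasgrf2 and Lmx1b, 5 in the one led by Elavl2 and Ndst4 and 4 in the one led by Elavl2 and Lmx1b. The share was 10 of 53 (18.9%), 3 of 47 (6.38%) and 2 of 20 (10.0%) in neuron-led clusters, in the order untreated, scaffold, HGF scaffold, and 0 of 76 in the others, which allows up to 3.95%. Slc17a7 was found in 1 member and Slc17a8 in none of 196, which allows up to 1.53%. A glutamate transporter UMI is thus missing in most members, and its absence at this depth does not tell a neuron's transmitter.

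The 15 members with Slc17a6 carried dorsal horn genes more often than the other 181, at a median depth of 3206 against 1949 UMIs. Reln, the secreted glycoprotein reelin, had a UMI in 11 of the 15 and 35 of the 181. Ebf2 was present in 11 and 55, Lmx1b in 8 and 34, the nuclear receptor gene Esrrg in 10 and 54, and Ebf1 in 13 and 120. Per UMI, Reln stood at 902.4 CPM with Slc17a6 and 204.4 CPM without it, Lmx1b at 389 and 141 CPM, and Ebf3 at 680.3 and 699 CPM. Reln and Lmx1b were thus higher per UMI beside Slc17a6, while the Ebf3 levels lay close together, with 49 Ebf3 UMIs behind the first value. All of these are counts over nuclei pooled from the 3 libraries.

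Lmx1b, needed for dorsal horn excitatory neurons, was most frequent in the untreated library. It had a UMI in 29 of 84 untreated (34.5%, interval 24.5 to 45.7), 11 of 89 scaffold (12.4%, 6.33 to 21.0) and 2 of 23 HGF scaffold members (8.70%, 1.07 to 28.04), with 253, 84.5 and 103 CPM. The background, in the same barcodes chosen for few rule neuron genes, was 0 of 205 oligodendrocyte and 1 of 454 myeloid barcodes. Thinned to 1000 UMIs the shares were 18.1%, 7.35% and 10.0%, and at 2000 UMIs 28.1%, 7.89% and 16.7%. The untreated share was highest at each depth, but the intervals overlapped at 1000 UMIs (9.98 to 28.9 untreated, 2.43 to 16.3 scaffold) and at 2000 UMIs (17.0 to 41.5 and 1.66 to 21.4). The clusters that hold Lmx1b were filled unevenly by the libraries. It was found in 15 of 38, 14 of 14 and 7 of 16 nuclei of the clusters led by Elavl2 and Lmx1b, by Rasgrf2 and by Galntl6 and Sox5, in 2 of 42 of the largest cluster and in 4 of 39 of the one led by Cnksr3.

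Among further dorsal horn genes, Reln had a UMI in 23 untreated (27.4%), 16 scaffold (18.0%) and 7 HGF scaffold members (30.4%). Tacr1, the substance P receptor, was found in 11 of 196 members, Drgx (listed as Prrxl1) in 9 and the precursor gene Tac1 in 3. Summed over 18 excitatory dorsal horn genes, the level was 954 CPM in untreated, 414 in scaffold and 724 in HGF scaffold members, against 307, 234 and 125 CPM in all other barcodes.

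Members with a UMI of Pax2 or Pax8, inhibitory identity genes that the rule did not use, were few, and none of them held Lmx1b. Pax2 had a UMI in 11 members and Pax8 in 10, with 6 holding both, and Pax2 or Pax8 was present in 7 untreated (8.33%), 6 scaffold (6.74%) and 2 HGF scaffold members (8.70%). No member held Lmx1b together with Pax2, which allows up to 1.53%, whereas 41 of the 42 Lmx1b members held Ebf1 and 40 held Ebf3. All Pax2 and Pax8 members lay in 2 neuron-led clusters, the largest (8 and 5 nuclei) and the one led by Zmat4 (3 and 5 nuclei). None of Pax2, Pax8, Lmx1b and Slc17a6 was seen in 133 members (67.9%). For comparison, 40 barcodes met the same rule but held an inhibitory UMI (13 untreated, 22 scaffold, 5 HGF scaffold), at a median depth of 4416.5 UMIs. In 18 of them the call rested on 1 UMI, and 19 of the 40 held Pax2, 31 Esrrg and 4 Lmx1b. These 2 sets differ by the rule itself, so the contrast is a description.

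Transcription factors of the early B cell factor family were widespread in the members. Ebf1 had a UMI in 67 untreated (79.8%), 53 scaffold (59.6%) and 13 HGF scaffold members (56.5%), Ebf3 in 42, 28 (31.5%) and 9 (39.1%), and Ebf2 in 38 (45.2%), 21 (23.6%) and 7 (30.4%). In the background barcodes, chosen for few rule neuron genes, the share was high for Ebf1, at 23.1% of myeloid and 24.4% of oligodendrocyte barcodes. It was low for Ebf3, at 1.32% and 1.46%. Among genes with at least 200 UMIs in the members, Ebf3 was also 1 of the 15 with the highest ratio over all other barcodes, at 7.41-fold. That list, which rests on the nuclei the rule chose and is a description, was led by Pde11a (16.3-fold), Kcnd3 (9.01-fold), the rule genes Asic2 and Kcnip4, and included Sgcz (8.29-fold) and Cdh8 (8.19-fold). Meis1 was found in 45 untreated (53.6%), 27 scaffold (30.3%) and 4 HGF scaffold members (17.4%), but also in 82 of 205 oligodendrocyte barcodes, so its share is no sign of a neuron. Esrrg was present in 29, 27 and 8 members.

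**Figure D3:**
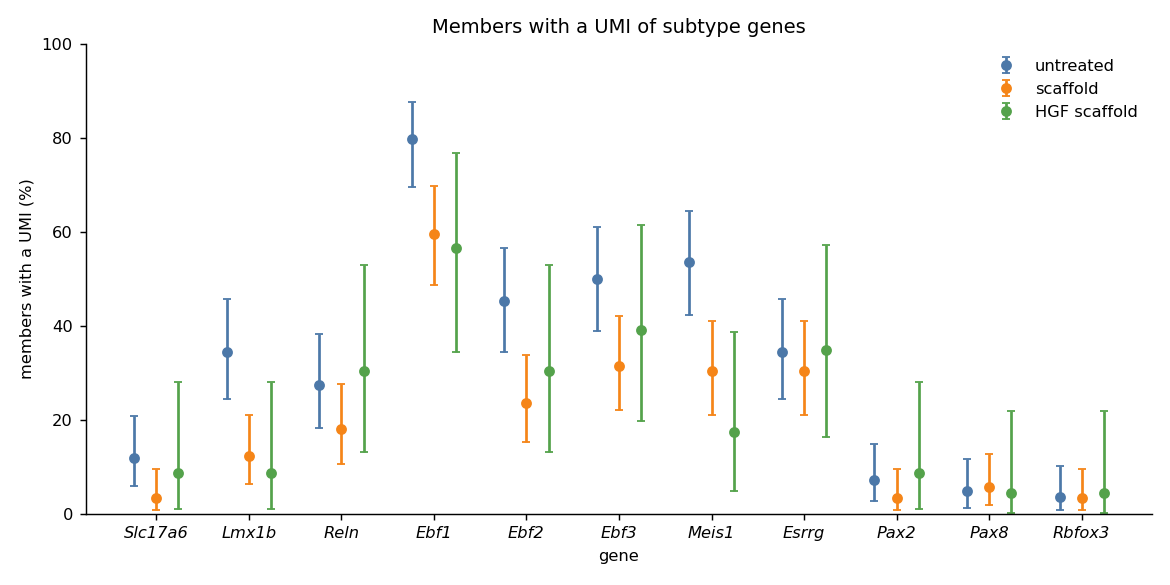
Share of members with a UMI of 11 subtype genes in each library; points are shares and bars exact 95% binomial intervals (counting error only, depth not matched). Lmx1b is at 34.5% in untreated, 12.4% in scaffold and 8.70% in HGF scaffold members, and Slc17a6 does not pass 11.9% in any.

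Single motor and sensory ganglion markers were rare. Chat, the acetylcholine synthesis enzyme gene, was found in 6 members (3.06%, against 1.95% of oligodendrocyte barcodes), and the ganglion sodium channel gene Scn10a in 2. The ganglion neuron gene Calca had 0 UMIs in all 196. The list of 14 cholinergic and motor neuron genes had no UMI in 109 of 196 members and summed to 297 CPM, against 761 CPM in all other barcodes. The 7 ganglion genes had none in 180 members and summed to 39.2 CPM, against 13.1 CPM. Of 13 spinal Hox genes in the files, Hoxb5 had the most members with a UMI (16), followed by Hoxc8 (13).

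Counts of the members were summed per library, giving 288233 UMIs in untreated, 224784 in scaffold and 48354 in HGF scaffold members. Genes with at least 20 UMIs in both libraries of a comparison together were measured, and a ratio of CPM was read against the median gene of that comparison (log2 ratio minus median). A gene is counted as past 2-fold when that value is at least 1 or at most -1. The median gene itself stood at 0.16, -0.08 and 0.04 (log2 CPM ratio) for scaffold over untreated, HGF scaffold over scaffold and HGF scaffold over untreated. With edgeR's TMM scaling in place of CPM the median gene stood at -0.04, -0.27 and -0.38, so a statement of higher or lower below is relative to the median gene. The comparisons share libraries with each other, so their values are given side by side and not as independent evidence.

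Among the genes furthest apart, Spp1, Lyz2, Ptprc and Apoe were higher in scaffold than in untreated members, and Kcnq5, Sox5, Pde11a and Ebf1 were lower. Of 4466 genes measured, 283 (6.34%) were at least 2-fold higher and 249 (5.58%) at least 2-fold lower. Among those higher that could also be measured in neuron-led clusters alone (103), 74 were past 2-fold there too, and among those lower 124 of 188. The neuron-led nuclei are part of the members, with 233365 of 288233 untreated and 144769 of 224784 scaffold UMIs. The overlap is thus no independent check. Of all 3320 genes measured in neuron-led clusters, 181 were past 2-fold higher and 223 lower.

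Spp1, which encodes osteopontin, had 13 UMIs in untreated, 113 in scaffold and 11 in HGF scaffold members, or 45.1, 503 and 227 CPM. Scaffold was 11.1-fold above untreated (interval 6.26 to 21.6), and 52 of 89 scaffold members held a UMI against 13 of 84. Lyz2, lysozyme of macrophages, was at 13.9, 214 and 186 CPM (15.4-fold, 5.63 to 58.8), and Ptprc, the leukocyte antigen CD45, at 93.7, 454 and 352 CPM (4.84-fold, 3.14 to 7.70). Apoe, the lipid carrier, was at 305, 1183 and 372 CPM (3.88-fold, 3.03 to 4.99). The others highest by the lower bound were Tmsb4x (4.44-fold), the ferritin genes Fth1 (4.34-fold) and Ftl1 (4.45-fold), Slfn3 (5.31-fold), the kinase gene Lyn (3.48-fold) and the actin-bundling gene Lcp1 (4.90-fold).

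Outside the members, Spp1 and Lyz2 were also higher in the scaffold than in the untreated library. From scaffold to HGF scaffold they rose there, while in the members they were lower (11 Spp1 and 9 Lyz2 UMIs in HGF scaffold). In all other barcodes Spp1 was at 161, 1114 and 1399 CPM and Lyz2 at 81.0, 442 and 902 CPM, in the same library order. The 9 microglia and macrophage markers in the files summed to 354, 1931 and 1220 CPM in the members and to 989, 4226 and 5519 CPM in all other barcodes, and at least 4 of them had a UMI in 2, 20 and 1 members. Within neuron-led clusters Spp1 was at 47.1 CPM in untreated and 408 CPM in scaffold members, and in the largest cluster at 22.6 and 494 CPM, with UMIs in 1 of 7 and 15 of 22 nuclei. Apoe was at 184 and 622 CPM in neuron-led clusters. Slfn3 and Lyn stood at 1.03 and 0.98 on the log2 scale minus the median there, against 2.25 and 1.64 over all members. The part of free RNA from other cells in these values was not tested.

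The genes lowest in scaffold members were led by Kcnq5, a potassium channel of the M current. It was at 2043 CPM in untreated, 503 in scaffold and 1675 in HGF scaffold members, with 589, 113 and 81 UMIs, and scaffold was at 0.246 of untreated (interval 0.199 to 0.301). Sox5, a transcription factor gene, was at 937, 262 and 248 CPM (ratio 0.280, 0.208 to 0.373), the phosphodiesterase gene Pde11a at 1269.8, 383 and 393 CPM (0.301) and Hmga2, a chromatin protein gene, at 246, 53.4 and 82.7 CPM (0.217). Ebf1 was at 6588, 2491 and 3929 CPM (0.378, 0.344 to 0.416) and Ebf2 at 999, 351 and 227 CPM (0.352, 0.271 to 0.453). The axon guidance ligand gene Efna5 (0.354), Pde1c (0.324), Galntl6 (0.387) and Col8a1 (0.231) completed the 10. By the same measure Lmx1b was at 0.334 (0.190 to 0.557) with 19 and 73 UMIs. Several of these genes were lower in the scaffold library outside the members too. In all other barcodes of the untreated and scaffold libraries Ebf1 was at 2671 and 1312 CPM, Col8a1 at 962 and 229.7 CPM, Efna5 at 526 and 269 CPM, Pde1c at 383 and 194 CPM and Sox5 at 273 and 132 CPM. Ebf1 had a UMI in 56.6% of all other untreated barcodes. The part of RNA shared by a whole library in the members' values was not tested.

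The fill of the clusters differed between the libraries beside these genes, and fewer nuclei of a kind and less RNA per nucleus cannot be told apart in a sum. Kcnq5 stood at 5954 CPM in the cluster led by Galntl6 and Sox5, which held 9 untreated and 5 scaffold nuclei, and Pde11a at 4741 CPM in the cluster led by Rasgrf2, which held 11 and 3. Within the largest cluster Kcnq5 was at 723 CPM in 7 untreated, 588 in 22 scaffold and 901 in 13 HGF scaffold nuclei, and within the cluster led by Elavl2 and Lmx1b at 775 CPM in 21 untreated and 444 in 13 scaffold nuclei. Ebf1 in those 2 clusters was at 294 CPM in untreated and 1236 in scaffold, and at 9875 and 7022 CPM. Sox5 in the second was at 369 and 800 CPM. For Ebf1 the order seen over all members thus held in the cluster led by Elavl2 and Lmx1b but was opposite in the largest cluster. Its counting intervals were apart in both. In the cluster led by Elavl2 and Lmx1b the intervals overlapped for Kcnq5 (593 to 996 CPM untreated, 213 to 817 scaffold). They also overlapped there for Sox5 (247 to 529 and 474 to 1264), so no order is read for these genes. These genes and clusters were picked after their values were seen.

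**Figure D4:**
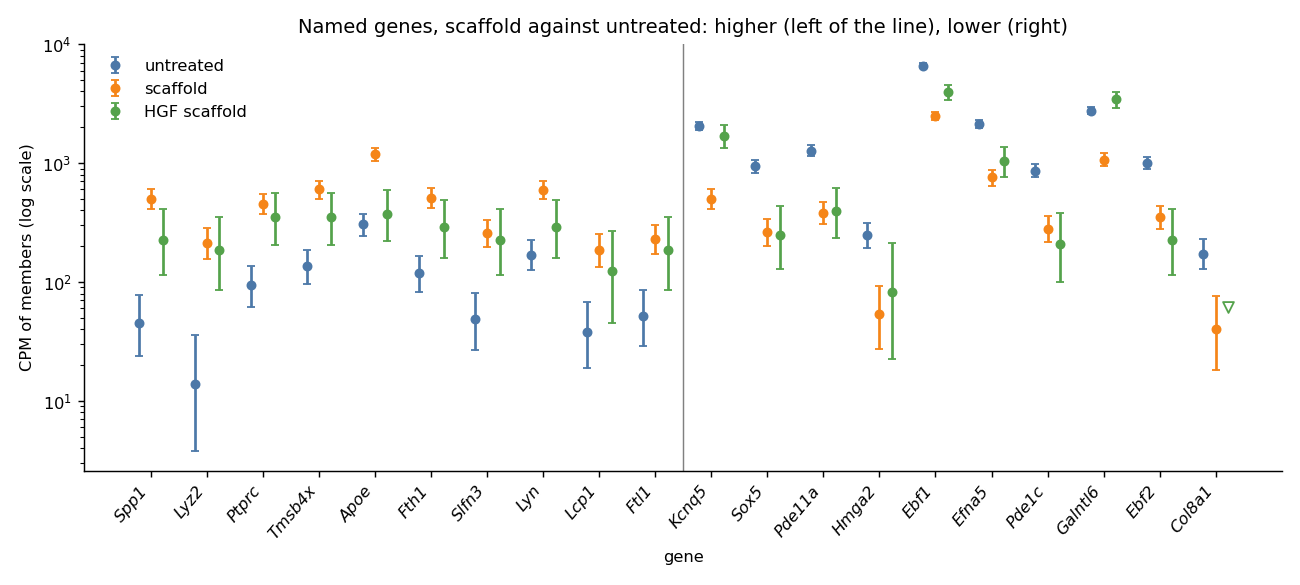
CPM of the summed members (log axis) in each library for the 10 genes with the highest and the 10 with the lowest scaffold over untreated interval bounds; bars are exact 95% Poisson intervals, and an open triangle marks 0 UMIs drawn at the level of 3. HGF scaffold members lie between the other libraries for Spp1 (227 CPM) and near the untreated level for Kcnq5 (1675 CPM).

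Genes of synaptic and electrical function were mostly lower than the median gene in scaffold members. Of 26 potassium and HCN channel genes measured, 2 lay above the median gene and 24 under it, with a list median of -0.67 (log2), 1 gene past 2-fold higher and 4 lower. GABA and glycine receptor genes had 3 above and 13 under (median -0.77, 5 of 16 past 2-fold lower), synaptic adhesion and scaffold genes 2 and 25 (-0.53), and axon guidance genes 4 and 23 (-0.53). Transmitter release genes had 4 above and 20 under (-0.34). Ionotropic glutamate receptor genes had 4 above and 11 under (-0.47) and metabotropic ones 1 and 5 (-0.64). For reference, 5.58% of all genes measured were past 2-fold lower. A gene with few UMIs can reach the minimum of 20 mainly through 1 library, such as Gabrg1 (16 untreated and 4 scaffold UMIs). These counts are thus a description.

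Single receptor and channel genes show the sizes. Gria2, the AMPA receptor subunit that limits calcium entry, was at 1159 CPM in untreated, 445 in scaffold and 682 in HGF scaffold members (scaffold ratio 0.384, 0.304 to 0.481). Grm7 was at 3195, 1837 and 1344 CPM (0.575) and the calcium channel subunit gene Cacna2d1 at 1318, 561 and 393 CPM (0.425). Gabra2, a GABA receptor subunit, had 36, 9 and 15 UMIs. Not all genes of these lists were lower: Nrxn3, a presynaptic adhesion gene, was at 2436, 3559 and 2957 CPM (1.46, 1.32 to 1.62), Grik4 at 517, 716 and 289.5 CPM (1.39, 1.10 to 1.74) and the chloride importer gene Slc12a2 at 177, 329 and 103 CPM (1.86, 1.28 to 2.71).

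In neuron-led clusters alone the same lists lay nearer to the median gene. The list medians were -0.33 for potassium and HCN channels (8 above, 14 under of 23), -0.47 for GABA and glycine receptors, -0.22 for synaptic adhesion, -0.27 for guidance, -0.18 for release and for ionotropic glutamate receptors, and -0.02 against -0.34 for sodium and calcium channels. Metabotropic glutamate receptors kept -0.61, with 5 genes measured. Gria2 kept -1.33 against -1.54 over all members, and its order was the same in the cluster led by Elavl2 and Lmx1b (1665 CPM in untreated, 622 in scaffold). In the largest cluster its values ran the other way (294 and 565 CPM), but the counting intervals overlapped (156 to 503 and 417 to 749). Scaffold members included more nuclei of clusters that are not neuron-led (42 of 89) than untreated members (31 of 84). These nuclei held 80015 of 224784 scaffold and 54868 of 288233 untreated UMIs. The part of this in the list values was not tested beyond these numbers.

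Stress, glycolysis and ribosomal genes were higher than the median gene in scaffold members. Heat shock and unfolded protein response genes had 7 of 9 above it and 4 past 2-fold higher (median 0.88), among them the chaperone genes Hspa8 with 10 untreated and 32 scaffold UMIs (4.10-fold, 1.97 to 9.36) and Hsph1. Glycolysis genes had 9 of 10 above (0.46), with Slc2a1, the glucose transporter GLUT1, at 5.13-fold (1.65 to 21.1) on 4 and 16 UMIs and the regulator gene Pfkfb3 at 3.85-fold. Ribosomal protein genes had 14 of 15 above (0.61). In these lists 4 of 9, 4 of 10 and 6 of 15 genes were past 2-fold higher, and for reference 6.34% of all genes measured were. A gene with few UMIs can reach the UMI minimum mainly through the scaffold library, such as Slc2a1 (4 untreated and 16 scaffold UMIs). These shares are thus a description, and an excess of the lists over all genes was not tested. In neuron-led clusters glycolysis kept 6 of 6 above (0.66), heat shock genes stood at 0.24 with 5 of 5 above, and 2 ribosomal genes could be measured.

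Injury and growth factor lists showed less. Axon injury and regeneration genes had 6 above and 10 under (-0.11), with Plaur, the urokinase receptor gene, at 3 untreated and 18 scaffold UMIs and Lifr, a cytokine receptor gene, at 19 and 4. Neurofilament, tubulin and axon transport genes stood at -0.05, neurotrophic receptors and factors at -0.26 and HGF and MET signalling genes at -0.20. Met, the HGF receptor gene, had 1 UMI in untreated, 7 in scaffold and 1 in HGF scaffold members, too few for a ratio, against 16.1% of myeloid barcodes with a UMI. Hgf itself had 1, 4 and 1 UMIs. Cblb, a ubiquitin ligase gene that acts on MET and other receptors, was at 111, 316 and 207 CPM (2.85-fold, 1.85 to 4.46).

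HGF scaffold members, compared with scaffold members, rested on 23 nuclei and 48354 UMIs, so single nuclei weigh heavily. Of 3033 genes measured, 240 (7.91%) were at least 2-fold higher and 397 (13.1%) at least 2-fold lower. With TMM scaling, not centred on the median gene, these were 128 and 590. Among those that could be measured in neuron-led clusters, 102 of 159 and 129 of 172 were past 2-fold in the same direction there. These nuclei are part of the members, so the overlap is no independent check. Of all 1982 genes measured in neuron-led clusters, 136 were past 2-fold higher and 200 lower.

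Apoo, a subunit of the mitochondrial MICOS complex, was at 184 CPM in untreated, 205 in scaffold and 972 in HGF scaffold members. It was 4.75-fold higher in HGF scaffold than in scaffold members (3.10 to 7.29) and present in 14 of 23 nuclei, with 29.8% of its UMIs in 1 nucleus. Kcnq5 (3.33-fold, 2.47 to 4.47) and Galntl6 (3.22-fold, 2.62 to 3.94) were also higher, with 37.0% and 37.3% of their HGF scaffold UMIs in 1 nucleus each. Within the largest cluster Kcnq5 was at 588 CPM in scaffold and 901 in HGF scaffold nuclei, in the cluster led by Elavl2 and Lmx1b at 444 and 175 CPM (the last from 1 UMI in 4 nuclei). In members with a Slc17a6 UMI its log2 ratio, taken relative to the median gene, was -0.58, the opposite sign. That value rests on 2 HGF scaffold and 3 scaffold nuclei. Both ratios share the scaffold library with the lower values given above for scaffold over untreated. The guidance ligand gene Slit2 was at 319, 222 and 745 CPM (3.35-fold, 36.1% of the UMIs in 1 nucleus) and Klhl1 at 409, 173 and 558 CPM (3.22-fold), with 18.5% of the Klhl1 UMIs in 1 nucleus. Several other genes of this list rest on 1 nucleus: it held 24 of 28 UMIs of Il1rapl2, 29 of 36 of the receptor kinase gene Alk, 37 of 51 of the metalloproteinase gene Mmp16 and 26 of 52 of Cntn5. Ube3a (2.79-fold) had 18 of 45 in 1 nucleus.

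Genes lower in HGF scaffold members included glial ones. Gfap had 102 UMIs in scaffold and 5 in HGF scaffold members (ratio 0.228, 0.0724 to 0.549), Apoe 266 and 18 (0.315), St18 73 and 2 (0.127) and the brain creatine kinase gene Ckb 50 and 1 (0.0930, 0.00231 to 0.542). Sox6 and Ror1 had 60 and 58 UMIs in scaffold and 0 in HGF scaffold members. Set against a floor of 3 counts per library, they were at least 4.30-fold and 4.16-fold lower, while in neuron-led clusters alone the bound for Sox6 did not reach 2-fold. Beside these values, 3 of 23 HGF scaffold and 42 of 89 scaffold members lay in clusters that are not neuron-led, and oligodendrocyte markers were at 1654 against 3617 CPM and astrocyte markers at 248 against 836 CPM. Tmem132d was at 1044, 761 and 124 CPM in untreated, scaffold and HGF scaffold members and Pbx3, a homeobox gene, at 1009.6, 1121 and 248 CPM. In neuron-led clusters these 2 kept -3.78 and -2.07 on the log2 scale minus the median for HGF scaffold over scaffold.

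Function lists in this comparison depended on the nuclei taken. Sodium and calcium channel genes had 14 of 16 above the median gene (median 0.61), transmitter release genes 16 of 19 (0.54) and GABA and glycine receptor genes 10 of 12 (0.62), with Gabra2 at 7.75-fold (3.18 to 20.1) on 15 and 9 UMIs, 7 of the 15 in 1 nucleus. In neuron-led clusters the medians were 0.24, 0.20 and 0.25, and with all nuclei left out that held 4 or more markers of another cell type the sodium and calcium channel list stood at -0.091 and the GABA and glycine receptor list at -0.0042. Grm5, a metabotropic glutamate receptor gene, was at 2723, 1570.4 and 3371 CPM (2.15-fold, 1.77 to 2.59) and present in 20 of 23 HGF scaffold members. Neurotrophic receptor and factor genes had 3 above and 5 under (-0.46, and -0.75 in neuron-led clusters), with the insulin-like growth factor receptor gene Igf1r at 0.458 (0.244 to 0.795). HGF and MET signalling genes had 3 above and 7 under (-0.37, and -0.10 in neuron-led clusters). Cell death genes had 2 above and 4 under (-0.69).

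Against untreated members, HGF scaffold members had 281 of 3155 genes at least 2-fold higher (8.91%) and 440 lower (13.9%), or 102 and 783 with TMM scaling that is not centred. In neuron-led clusters 172 of the 202 measured there and 283 of 346 were past 2-fold in the same direction. These nuclei are part of the members, so the overlap is no independent check. Of all 2575 genes measured in neuron-led clusters, 242 were past 2-fold higher and 362 lower. Higher over all members were Apoo (5.29-fold, 3.49 to 7.98), the glutamine transporter gene Slc38a1 (4.09-fold, present in 13 of 23 nuclei), the splicing factor gene Snrnp70 (3.26-fold, 16 of 23), the guidance receptor gene Robo1 (2.41-fold, 1.955 to 2.956) and the heparan sulfate enzyme gene Hs6st3 (2.35-fold, 1.99 to 2.76). Cntn5 (4.56-fold), Mmp16 (4.05-fold), Nkain3 (3.61-fold) and the rule gene Snhg11 (2.20-fold) were also among the 10.

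Robo1 and Apoo were also compared within clusters. In the largest, Robo1 was at 2396 CPM in untreated, 3213 in scaffold and 3354 in HGF scaffold nuclei, while over all members it was at 1141, 1802 and 2751 CPM. In the cluster led by Elavl2 and Lmx1b it was at 864 CPM in 21 untreated, 667 in 13 scaffold and 3665 in 4 HGF scaffold nuclei. Apoo in the largest cluster was at 452, 224 and 1056 CPM.

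Lower against untreated were Tmem132d with 301 and 6 UMIs (ratio 0.119, 0.0433 to 0.262), the protease gene Pcsk5 with 100 and 1 (0.0596, 0.00149 to 0.340) and Kcnip1 with 257 and 9 (0.209), 105 of the 257 in 1 untreated nucleus. Ebf2 (0.228), Pbx3 (0.246), Pde1c (0.239) and the zinc finger gene Zbtb20 (0.315, 0.216 to 0.444) were also lower, and Ror1, Sox6 and Adamts12 had 0 UMIs in HGF scaffold members. For Sox6 no call is possible in neuron-led clusters, where the floor of 3 counts lay above its untreated level. Zbtb20 was at 2234, 1526 and 703 CPM. By list, neurotrophic receptors and factors had 2 above and 8 under the median gene (-0.69), with Erbb4, a neuregulin receptor, at 1832, 1326 and 807 CPM (0.440). Synaptic adhesion genes had 6 above and 20 under (-0.36), potassium and HCN channels 7 and 14 (-0.33), and metabotropic glutamate receptors 2 and 3 (-0.58). Transmitter release genes had 15 of 21 above (0.17) and axon transport and cytoskeleton genes 14 of 21 (0.15), both under 0 (-0.22 and -0.24) with TMM scaling that is not centred.

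**Figure D5:**
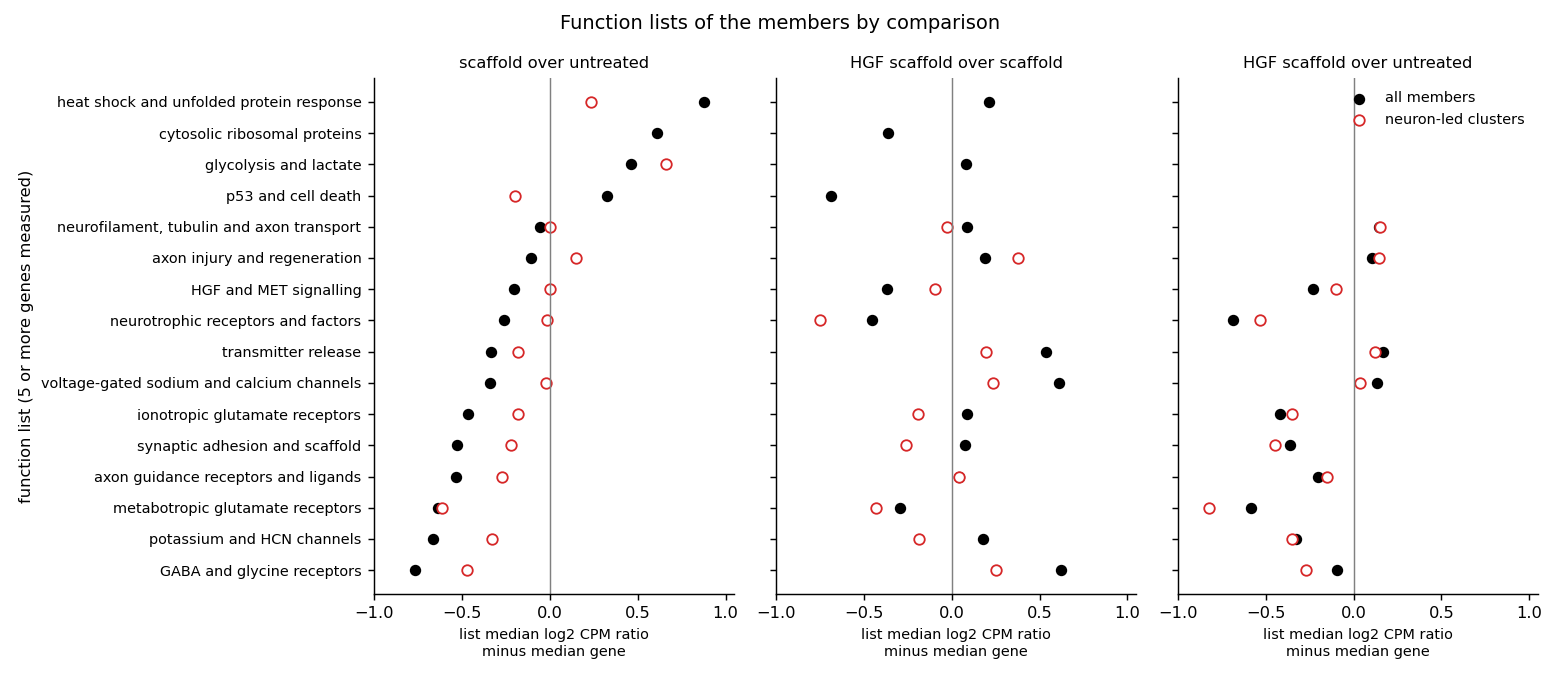
Median log2 CPM ratio of each function list minus that of the median gene for the 3 comparisons, in all members (filled) and in neuron-led clusters (open), for lists with at least 5 genes measured. In scaffold over untreated, potassium and HCN channels move from -0.67 to -0.33 and heat shock genes from 0.88 to 0.24 when the neuron-led clusters are taken alone.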

How the data were processed

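Nuclei from 3 libraries were sequenced on 10x Genomics 3′ gel beads with 150 bp paired ends, per the labels' protocols. The authors deposited raw UMI counts per gene and barcode made with Cell Ranger 6.0.1, per the file headers and the submitters' processing notes, and the genome build is not given in the sources used here. The deposited counts cover 17328 genes and 5326 barcodes, and all barcodes were kept. A filter of at least 200 genes was tried as an alternative. Mitochondrially encoded genes matched 0 of 14 names and were not analysed here. No doublet caller was run, and mixed nuclei were handled by marker genes. The members and gene lists were chosen with earlier results of these data known. Of 711 list entries, 652 matched a gene in the files.

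Members' counts were summed per library and scaled to CPM. A gene was measured in a comparison when its UMIs of the compared libraries added to 20 or more. Intervals are exact at 95% (Clopper-Pearson for shares, Poisson for levels, conditional binomial for ratios). A gene at 0 was set against a floor of 3 counts, and a share of 0 is given with the limit that 3 counts of its total allow. Thinning drew UMIs without replacement. Members were clustered with scanpy 1.11.5 (2000 variable genes, counts scaled to 10000, 20 components, 10 neighbours, Leiden resolution 0.8). The genes followed within single clusters were chosen after seeing the data. TMM scaling came from edgeR 4.0.16, with no test by it. Named genes were, per comparison and among genes with at least 50 UMIs, the 10 with the highest lower bound and the 10 with the lowest upper bound of the interval, and per function list the 2 highest and the 2 lowest. Further genes named were those of the rule, the most frequent subtype genes and the 15 highest over all other barcodes. Some genes that meet this rule are not reported here. Genes named outside this rule were chosen after their values were seen. No test was made between groups, since each is 1 library. The scripts for ratios were tested on simulated data.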

Additional observations from a re-analysis of the deposited data

How the results depend on the processing

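With 1 library per group, leaving out a replicate was not possible, and every value is limited by 48354 UMIs in 23 HGF scaffold members. No paired analysis was possible because each group has 1 library. The members' share in the untreated and scaffold libraries was 2.40% and 2.35% with at least 4 rule genes, 8.17% and 10.1% with at least 2, 1.82% and 1.98% without mixed nuclei (4 or more markers of another cell type), 9.33% and 11.7% with no limit on other-lineage genes (HGF scaffold 4.19%), and 2.35% and 2.17% in neuron-led clusters. The Slc17a6 share after thinning to 1000 UMIs was 5.56% in untreated and 0% in scaffold members. Genes at least 2-fold higher in scaffold than untreated members (283) were 431 with equal weight per nucleus, 65 with at least 50 UMIs, 83 in members with Slc17a6 and 181 in neuron-led clusters, and genes lower (249) were 384, 92 and 82 under the first 3 of these. List medians above 0 (4 of 16) were 2 with at least 50 UMIs. For HGF scaffold over scaffold, genes higher (240) were 374 with equal weight, 63 with at least 50 UMIs, 128 with TMM, 135 with at least 4 rule genes, 105 without mixed nuclei, 34 in members with Slc17a6 and 136 in neuron-led clusters. Genes lower (397) were 115 with at least 50 UMIs, 256 with at least 4 rule genes, 119 without mixed nuclei, 43 in members with Slc17a6 and 200 in neuron-led clusters. List medians above 0 (11 of 16) were 3 with TMM, 7 with at least 4 rule genes, 3 without mixed nuclei, 3 in members with Slc17a6 and 5 in neuron-led clusters. For HGF scaffold over untreated, genes higher (281) were 78 with at least 50 UMIs, 102 with TMM, 152 without mixed nuclei and 76 in members with Slc17a6, and genes lower (440) were 168, 783, 269 and 110. List medians above 0 (4 of 12) were 0 with TMM and 2 without mixed nuclei. A higher UMI minimum, fewer nuclei or the neuron-led clusters leave fewer genes to measure; for the other settings the cause was not tested. Among single genes and list medians of at least 0.5 in size, the sign turned for 4 values. Without mixed nuclei it turned for the HGF scaffold over scaffold medians of GABA and glycine receptors (-0.0042) and of sodium and calcium channels (-0.091). It also turned for Kcnq5 in that comparison in members with Slc17a6 (-0.58), which throughout were 10 untreated, 3 scaffold and 2 HGF scaffold nuclei. The last was neurotrophic genes in HGF scaffold over untreated with equal weight per nucleus (0.049). Of the values for single genes and lists, 569 moved little and 154 moved further. List medians under 0.5 in size that crossed 0 are among these. For HGF scaffold over scaffold, potassium and HCN channels stood at 0.18 over all members and -0.18 in neuron-led clusters. The neuron-led clusters and the absence of a limit on other-lineage genes were alternatives chosen after seeing the data.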
